A study of Mus musculus with 74 samples.

Results

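Poly(A) RNA of quadriceps from mice labelled as muscle Bcl6 knockouts was compared with poly(A) RNA of quadriceps from labelled controls, in 8 libraries of the 74 samples in the series. The members were taken by label, as the 4 knockout libraries RNA_11688, RNA_11718, RNA_11721 and RNA_11722 and the 4 control libraries RNA_11673, RNA_11734, RNA_11735 and RNA_11745 of the RiboTag experiment. All 8 mice were C57BL/6, carried the AEC-Esr Cre and the RiboTag allele, and were given tamoxifen (TMX in the labels). The knockouts carried Bcl6 fl/fl in addition, and no floxed Bcl6 allele is named for the controls. Because Cre and tamoxifen were present in both groups, neither separates them, whereas the floxed allele itself and the loss of Bcl6 cannot be told apart. The promoter that drives the Cre, the ages and the time after tamoxifen are not given in the sources used here. RiboTag is an allele that gives a ribosomal protein an HA tag wherever Cre has acted, and ribosome footprints from the same 8 animal numbers were pulled down with HA beads. The labels name the HA antibody for the poly(A) libraries too, while the RNA protocol describes whole tissue, so whether the poly(A) RNA was pulled down cannot be told from them.

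BCL6 is a DNA-binding transcriptional repressor that recruits corepressor complexes, and it is best known for its role in germinal centre B cells. Its DNA motif resembles that of the STAT factors, which carry growth hormone signals to the nucleus. Growth hormone acts on muscle through JAK2 and STAT5, induces Igf1, and is restrained by SOCS proteins, while IGF1 acts through PI3K, AKT and mTORC1 to raise protein synthesis.

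Counts in genes were 6499561 in control RNA_11745 and 9042558 to 13045854 in the other 7 libraries. On the first principal component, which held 34.5% of the variance of log counts, the controls lay between -40.8 and -3.38 and the knockouts between 4.18 and 28.03. Correlations between libraries were 0.974 to 0.985 within groups (12 pairs) and 0.958 to 0.978 between groups (16 pairs). Levels below are counts scaled to the library total (CPM), and sets of 8 values give controls RNA_11673, RNA_11734, RNA_11735 and RNA_11745 and then knockouts RNA_11688, RNA_11718, RNA_11721 and RNA_11722. Bcl6 itself (chr16:23965050-23988852, mm10, minus strand) was counted over the whole gene, introns and undeleted exons included, so its count does not check the deletion. It measured 132, 315, 125 and 262 CPM in the controls and 273, 248, 187 and 209 CPM in the knockouts, and these groups overlapped (adjusted p = 0.84). Bcl6 footprints averaged 197 ± 57.6 CPM in the controls and 90.7 ± 15.9 CPM in the knockouts (SD, n = 4), a log2 change of -1.12 ± 0.20 (SE, adjusted p = 0.00201).

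Marker genes of muscle fibres and of other cell types were read in the poly(A) RNA. Of 97 marker entries tested, 2 were raised (Kera of tendon and Cdh15 of satellite cells) and 2 were lowered. Chodl is counted in both the tendon and the satellite cell list. Among all genes tested, 4.21% were raised or lowered. The 12 endothelial markers together made up 1313 to 1497 CPM in the controls and 1254 to 1525 CPM in the knockouts, and fibroblast markers 3947 to 6438 and 3930 to 5337 CPM. Macrophage markers ranged from 261 to 709 CPM in the controls and from 292 to 724 CPM in the knockouts. The 13 muscle fibre markers, from Acta1 to Ryr1, summed to 26160 to 37680 CPM in the controls and 22620 to 27630 CPM in the knockouts, and 0 of them were called (median log2 change -0.24, against 0.01 over all genes tested). Lymphocyte markers were low, with 16.3 to 25.9 CPM in the controls and 6.01 to 9.41 CPM in the knockouts, and only Cd28 and Cd3e of the 8 passed the filter on low counts, both lowered. Neutrophil markers stood apart in knockouts RNA_11721 and RNA_11722, with 93.0 and 238.5 CPM against 1.81 to 6.87 CPM in the other 6 libraries. In bulk RNA, fewer cells of a type and less RNA per cell cannot be told apart.

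**Figure D1:**
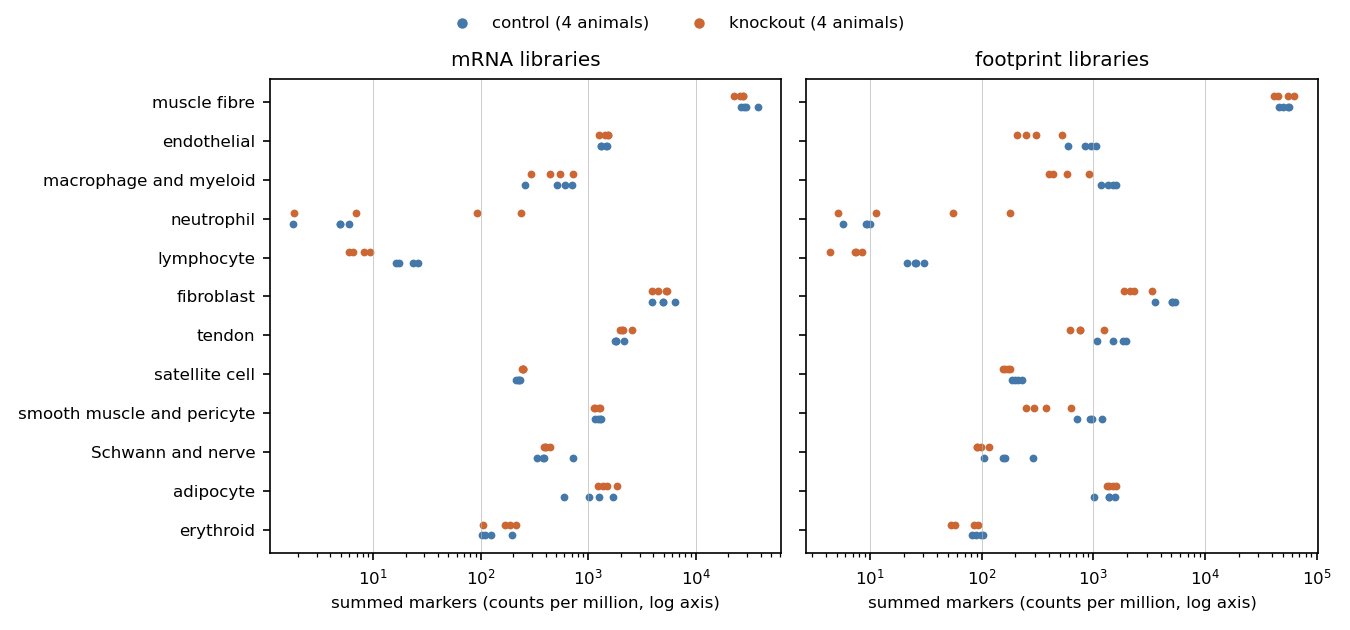
Summed marker genes of 12 cell types in each library (CPM, log axis), for mRNA on the left and ribosome footprints on the right, with 1 point per animal. In mRNA the endothelial points of both groups lie between 1254 and 1525, while in footprints the knockouts lie between 207 and 525 and the controls between 587 and 1066.

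Of 14476 genes with enough counts to test, 283 were raised (1.95%) and 326 were lowered (2.25%) in the knockouts at an adjusted p below 0.05. The p-values measure the spread between these 8 libraries. All 4 knockouts lay above all 4 controls for 273 of the raised genes and below them for 316 of the lowered genes, against 5.62% and 5.64% of all genes tested with groups that did not overlap in these directions. Changes of at least 1 on the log2 scale were found for 112 raised and 85 lowered genes, and of at least 2 for 31 and 17. The lowered genes had higher counts, with a median of 77.1 CPM against 32.9 CPM for the raised genes and 28.4 CPM for all genes tested. At 100 CPM or more there were 131 lowered and 63 raised genes. Leaving out control RNA_11735 left 176 raised genes, leaving out knockout RNA_11722 also 176 and leaving out control RNA_11734 left 186, while without control RNA_11734 there were 209 lowered genes and without knockout RNA_11688 there were 213. DESeq2 gave 408 raised and 565 lowered genes.

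Several of the most strongly raised genes were close to silent in the controls. Chrna9, a nicotinic acetylcholine receptor subunit known from the inner ear (chr5:65967124-65977486), measured 0.653, 1.10, 0.291 and 0.168 CPM in the controls and 54.5, 24.5, 26.2 and 23.5 CPM in the knockouts. Every knockout was far above every control, and the log2 change was 5.73 ± 0.43 (SE, adjusted p = 1.83e-05). Sln, which encodes sarcolipin, an inhibitor of the calcium pump of the sarcoplasmic reticulum (chr9:53850251-53853849), measured 2.80, 3.01, 9.32 and 5.72 CPM in the controls and 97.0, 56.0, 92.9 and 92.2 CPM in the knockouts. Its log2 change was 4.03 ± 0.32 (adjusted p = 2.73e-05). Spns3 (log2 change 5.41) and Cited1, a transcriptional coactivator (5.04), rose from 0.925 ± 0.23 to 39.6 ± 10.4 CPM and from 1.44 ± 0.70 to 49.9 ± 5.25 CPM (SD, n = 4). Stc2, which encodes the secreted glycoprotein stanniocalcin 2, rose from 7.73 ± 0.27 to 54.2 ± 16.6 CPM, and its controls lay within 7.47 to 8.07 CPM. Vdr, the vitamin D receptor, was at 0.168 to 0.874 CPM in the controls and at 5.69 to 16.7 CPM in the knockouts. Clec3a behaved differently. Its knockouts RNA_11721 and RNA_11722 measured 71.5 and 166.4 CPM, but knockouts RNA_11688 and RNA_11718 measured 4.51 and 5.50 CPM and the controls 2.52 to 5.02 CPM. The same 2 libraries held the high neutrophil markers, whose part in this was not tested, and Clec3a lost its call when either of them or any of the 4 controls was left out (its adjusted p rose from 0.0451 to as much as 0.126).

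**Figure D2:**
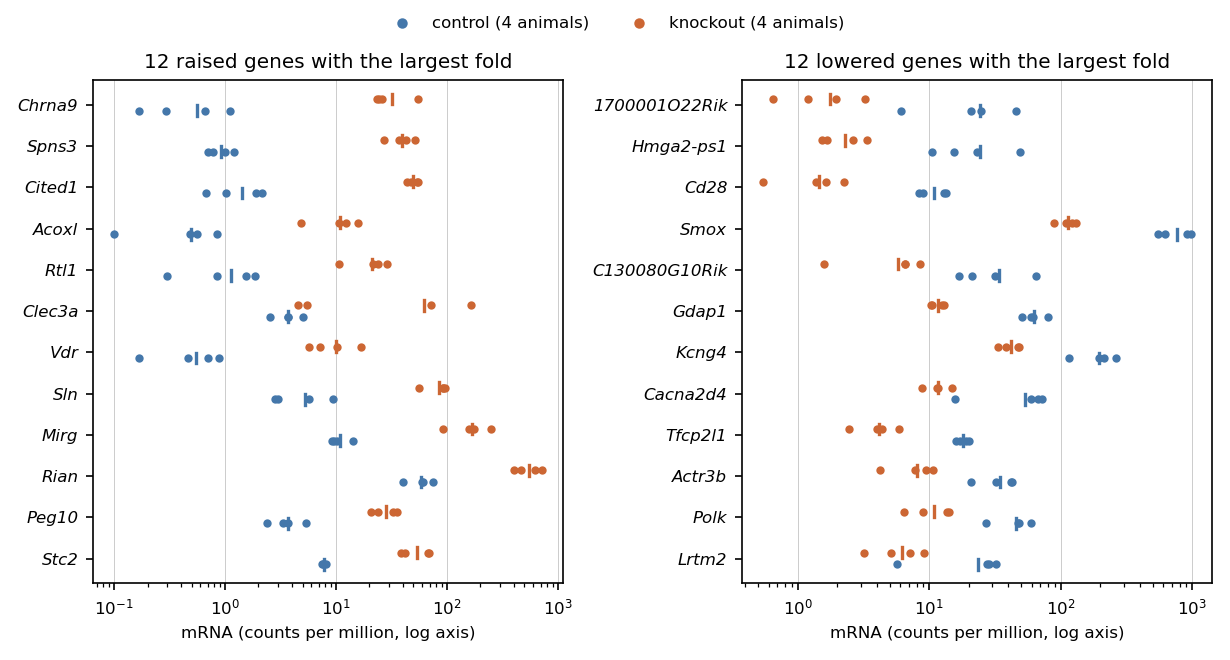
mRNA level in each library (CPM, log axis) of the 12 raised and 12 lowered genes with the largest fold among genes averaging at least 5 CPM. Points are animals and vertical bars are group means. Clec3a and Lrtm2 are the 2 genes whose groups overlap.

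The largest falls included genes of unknown or varied function. The uncharacterised 1700001O22Rik fell from 6.07, 45.9, 20.6 and 24.9 CPM to 3.24, 1.94, 1.204 and 0.652 CPM, a log2 change of -3.82 ± 0.59 (adjusted p = 0.00314). Cd28, which encodes a costimulatory receptor of T cells (chr1:60746388-60773359), measured 8.96, 12.8, 13.5 and 8.41 CPM in the controls and 2.26, 1.63, 0.547 and 1.38 CPM in the knockouts. Gdap1, a mitochondrial outer membrane protein, fell from 63.0 ± 12.1 to 11.6 ± 1.38 CPM, and Kcng4, a modifier subunit of voltage-gated potassium channels, from 196 ± 60.9 to 41.8 ± 7.21 CPM (SD, n = 4). Tfcp2l1, a transcription factor, and Actr3b, a subunit of the actin-nucleating complex, fell by 2.11 and 2.09 on the log2 scale. Polk, a translesion DNA polymerase, fell from 45.3 ± 13.5 to 10.8 ± 3.68 CPM. Cacna2d4, an auxiliary calcium channel subunit, fell by 2.19, but its control RNA_11673 (15.6 CPM) lay close to the highest knockout (14.98 CPM) and the other controls at 58.9 to 72.0 CPM. Its neighbour Lrtm2 lies entirely within the body of Cacna2d4 on the other strand, and Hmga2-ps1 within Sdccag8, so their counts are uncertain, and the Lrtm2 call was lost without any of 6 single libraries.

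A cluster of imprinted transcripts on chromosome 12 rose together. Imprinted genes are expressed from 1 parental copy, and in this cluster Meg3, Rian and Mirg are noncoding RNAs of the maternal copy, while Rtl1, a retrotransposon-derived gene, is expressed from the paternal copy. Rian (chr12:109603945-109661711) measured 75.4, 40.3, 59.2 and 60.7 CPM in the controls and 627.5, 402.8, 469.9 and 716.1 CPM in the knockouts, a log2 change of 3.23 ± 0.22 (adjusted p = 9.53e-06). Mirg (chr12:109734981-109749457), the host of many microRNAs, measured 14.3, 9.23, 9.71 and 10.3 CPM in the controls and 177, 93.3, 158 and 251 CPM in the knockouts. The most strongly counted of these transcripts, Meg3 (chr12:109540996-109571729), measured 290, 154, 245 and 268 CPM and then 1171, 722, 1062 and 1258 CPM. Knockout RNA_11718 was the lowest of the knockouts for each of the 3 RNAs and still lay above every control. Rtl1 rose by 4.16 ± 0.42, from 0.301 to 1.87 CPM in the controls to 10.6 to 28.9 CPM in the knockouts. Its body overlaps antisense microRNA genes, and no strand setting is named for the counting, so reads of either strand may be included. The genes at the ends of the cluster were not called, with Dlk1 at 5.53 ± 1.88 and 9.14 ± 2.63 CPM (adjusted p = 0.204) and Dio3 at 1.04 ± 0.33 and 1.00 ± 0.48 CPM (adjusted p = 0.983).

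Among 23 imprinted genes tested, 6 were raised and 0 were lowered, with a median log2 change of 0.21. Outside the cluster, Peg10, another retrotransposon-derived gene, rose from 3.71 ± 1.26 to 28.4 ± 7.08 CPM, and Igf2, the fetal growth factor, from 74.6 ± 17.0 to 120.9 ± 20.2 CPM. H19, the noncoding neighbour of Igf2, averaged 888 ± 100.2 CPM in the controls and 814 ± 115.5 CPM in the knockouts (adjusted p = 0.67). Peg3, a zinc finger gene, averaged 21.4 ± 4.06 and 40.9 ± 16.7 CPM (adjusted p = 0.0708). In the separate muscle RNA described below, 10 of the imprinted genes were raised, H19 and Peg3 among them, and 0 were lowered.

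Genes of polyamine metabolism fell at several steps. Polyamines are made from ornithine by ornithine decarboxylase (Odc1), extended with groups supplied by S-adenosylmethionine decarboxylase (Amd1), and oxidised by spermine oxidase (Smox). Smox (chr2:131491862-131525183) measured 549.4, 906.1, 617.0 and 971.8 CPM in the controls and 89.5, 129.5, 121.6 and 109.7 CPM in the knockouts. The groups were far apart, and the log2 change was -2.76 ± 0.19 (adjusted p = 1.18e-05). Amd1 (chr10:40287458-40302188) measured 92.7, 107.3, 85.6 and 124.6 CPM in the controls and 31.6, 34.6, 33.6 and 28.5 CPM in the knockouts, a log2 change of -1.68 ± 0.12 (adjusted p = 1.66e-05). The row for Amd2 covers the same stretch and counts the same reads, so the 5 lowered members stand for 4 loci. Odc1, the fifth lowered member and outside the rule for named genes, measured 35.3, 76.2, 61.3 and 57.5 CPM in the controls and 20.5, 31.0, 25.3 and 25.2 CPM in the knockouts (log2 change -1.18, adjusted p = 0.00623). Azin1, the antizyme inhibitor that protects ornithine decarboxylase from degradation, fell from 128 ± 15.9 to 72.8 ± 12.3 CPM (log2 change -0.81, adjusted p = 0.00437). The list held 14 tested genes with 5 lowered and 0 raised, and its median log2 change was 0.105. Spermidine synthase (Srm) averaged 20.2 ± 2.59 and 22.9 ± 2.59 CPM, spermine synthase (Sms) 120.7 ± 17.8 and 87.1 ± 12.1 CPM (adjusted p = 0.0589), and the acetyltransferase Sat1 35.4 ± 4.46 and 38.5 ± 5.06 CPM. In the separate muscle RNA the same 5 rows were lowered. In footprints of the same animal numbers, 2 of 10 tested members were lowered, Smox (log2 change -2.53) and Azin1 (-0.34), and 0 were raised. Amd1 and Amd2 had too few footprints to test.

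**Figure D3:**
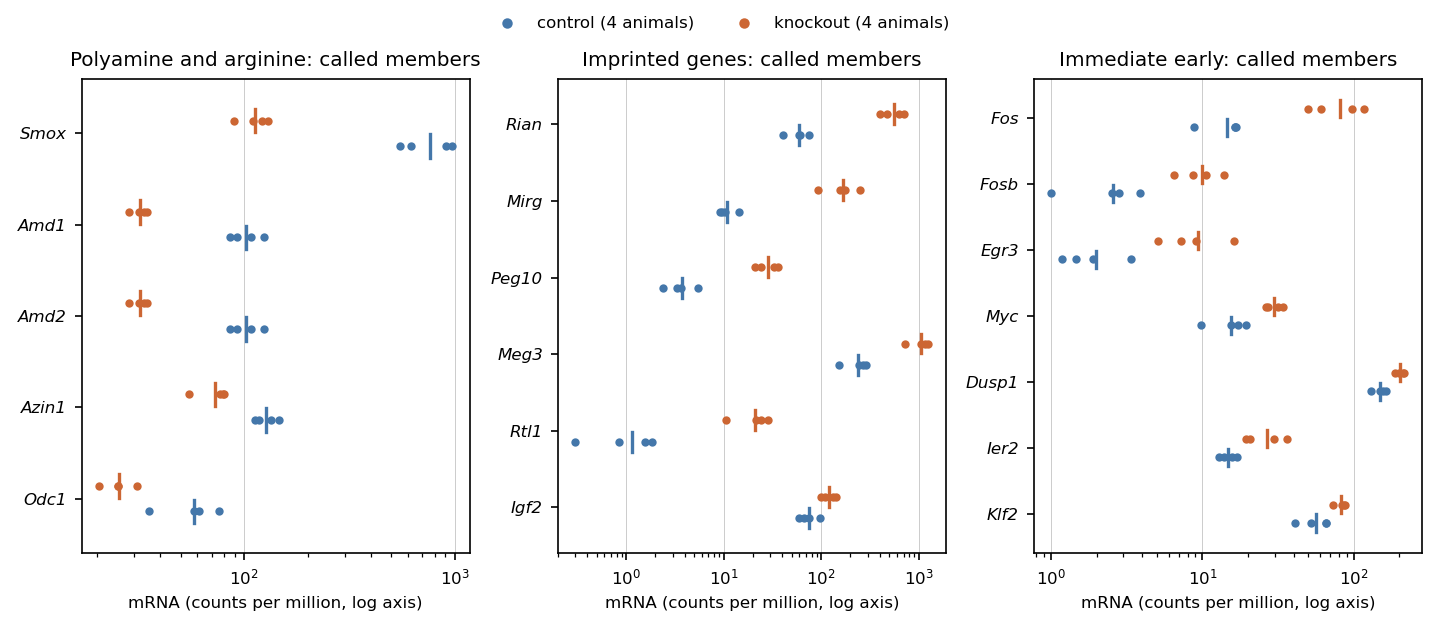
mRNA level in each library (CPM, log axis) of the called members of the polyamine, imprinted and immediate early lists. Points are animals and vertical bars are group means. Groups do not overlap for any gene shown, with Smox at 549.4 CPM or more in the controls and at most 129.5 CPM in the knockouts.

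The growth hormone and IGF1 axis had members that moved in both directions, with 2 raised and 4 lowered of 19 tested (median log2 change -0.03). Among the ligands, Igf1 measured 54.4, 62.6, 70.3 and 62.1 CPM in the controls and 49.7, 35.9, 37.9 and 36.0 CPM in the knockouts, where RNA_11688 lay nearest to the controls. Its log2 change was -0.65 ± 0.12 (adjusted p = 0.0104). The ligand Igf2, counted in the imprinted list too, was raised (log2 change 0.69). Igfals, the acid-labile subunit that holds IGF1 in the circulation, rose from 11.4, 13.3, 20.1 and 16.5 CPM to 42.1, 52.4, 61.3 and 48.1 CPM (log2 change 1.74 ± 0.17, adjusted p = 0.000192). Igfbp5, an IGF-binding protein, fell from 1023 ± 117 to 700.3 ± 12.6 CPM. Of the receptor and its signal, Ghr averaged 281 ± 5.67 and 240 ± 36.7 CPM (adjusted p = 0.294), Jak2 fell from 139 ± 15.98 to 94.7 ± 14.1 CPM, and Stat5a and Stat5b had log2 changes of -0.03 and -0.02 (adjusted p = 0.923 and 0.941). Irs1, the adaptor between the insulin and IGF1 receptors and PI3K, fell from 261 ± 26.3 to 182 ± 12.9 CPM. Socs2, the feedback inhibitor of growth hormone signalling (chr10:95411490-95416857), rose from 34.1, 20.6, 42.6 and 19.3 CPM to 86.5, 102.5, 90.7 and 101.4 CPM, a log2 change of 1.69 ± 0.21 (adjusted p = 0.000809). It was the only called gene among 14 SOCS and feedback genes tested. Cish, a related feedback inhibitor, varied from 7.06 to 156 CPM among the controls and from 44.6 to 75.7 CPM among the knockouts and was not called (adjusted p = 0.896).

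Downstream of IGF1, the kinase gene Akt1 (chr12:112653821-112674884) rose with little spread, from 160, 151, 162 and 154 CPM to 426, 463, 489 and 390 CPM. Its log2 change was 1.49 ± 0.09 (adjusted p = 3.89e-06), while Akt2 had a log2 change of 0.005 (adjusted p = 0.988). Pik3ca, the catalytic subunit of PI3K, rose from 111 ± 7.26 to 166 ± 16.4 CPM, and the other 17 genes of the PI3K, AKT and mTORC1 list, Mtor and Rptor among them, were not called. Sesn1, a sestrin that restrains mTORC1, measured 68.0, 63.2, 68.8 and 76.9 CPM in the controls and 167, 167, 155 and 165 CPM in the knockouts (log2 change 1.24 ± 0.08, adjusted p = 9.49e-06). It was the 1 member raised of 11 brakes on mTORC1 tested, and Ddit4 varied from 30.6 to 211 CPM among the controls alone. Eif4ebp1, the repressor of cap-dependent translation (chr8:27260327-27275656), rose from 56.8, 48.6, 49.5 and 56.7 CPM to 125, 128, 142 and 108 CPM, and was the 1 member called of 18 cap-binding genes. Mstn, which encodes the muscle growth inhibitor myostatin, rose from 125 ± 11.2 to 209 ± 35.5 CPM, and Smad3, a transducer of its receptor, fell from 248 ± 47.9 to 133 ± 25.9 CPM. The other 16 tested genes of the myostatin and activin list were not called. The 15 atrophy ligase and FOXO genes gave 0 calls, with Trim63 at 299 ± 36.4 and 298 ± 23.8 CPM and Fbxo32 at 308 ± 57.2 and 408 ± 101 CPM (adjusted p = 0.993 and 0.259).

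Genes of the nerve-muscle synapse and of denervated muscle were raised in 6 of 21 cases and lowered in 1 (median log2 change 0.17). Beside Chrna9 and Sln these were the acetylcholine receptor subunit Chrna1, which rose from 54.1, 42.2, 47.1 and 40.2 CPM to 70.3, 72.3, 73.1 and 76.5 CPM, the embryonic myosin Myh3, and the synaptic scaffold genes Lrp4 and Rapsn. Myh3 rose from 6.71 ± 1.44 to 19.7 ± 6.09 CPM (log2 change 1.55). It was not called in footprints (0.22, adjusted p = 0.426 with edgeR) or in the separate muscle RNA described below (0.15, adjusted p = 0.171 with limma). Chrna9, Sln, Chrna1 and Rapsn were raised in both. Colq, which anchors acetylcholinesterase at the synapse, fell from 32.5 ± 2.94 to 20.5 ± 1.71 CPM. Not every denervation gene moved, with the transcription factor Myog at 15.6 ± 3.79 and 15.5 ± 1.34 CPM and the receptor kinase Musk at 9.50 ± 1.89 and 9.39 ± 2.49 CPM. Of 15 slow fibre genes, 3 were raised (median 0.41). Casq2, the cardiac and slow form of the calcium store protein calsequestrin (chr3:102086415-102146512), rose from 104, 118, 119 and 113 CPM to 247, 330, 359 and 294 CPM. Its log2 change was 1.44 ± 0.11 (adjusted p = 2.7e-05). The slow troponin Tnni1 and the Z-disc gene Myoz2 rose by 0.67 and 0.39 on the log2 scale. Both calls were lost without any of 6 single libraries (highest adjusted p 0.148 and 0.144), and that of Myoz2 also in edgeR with RLE scaling. The slow myosin Myh7 averaged 513 ± 160 and 845 ± 142 CPM (adjusted p = 0.057). Among 16 fast fibre genes, Myoz3 fell by 0.51 and the others were not called (median -0.22).

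Immediate early genes, which respond within minutes to activity, stress or growth factors, were raised in 7 of 25 cases and lowered in 0 (median log2 change 0.53). Fos (chr12:85473890-85477274) measured 16.4, 16.7, 16.5 and 8.75 CPM in the controls and 116.6, 50.1, 60.4 and 97.9 CPM in the knockouts, a log2 change of 2.45 ± 0.27 (adjusted p = 0.000398). Fosb and Egr3 rose by 1.99 and 2.20, from at most 3.87 and 3.36 CPM in any control to at least 6.52 and 5.10 CPM in any knockout. Myc rose from 15.5 ± 4.18 to 29.9 ± 3.66 CPM. The smaller rises of Dusp1 (0.45), Ier2 (0.83) and Klf2 (0.57) were between groups that did not overlap. Egr1 averaged 23.8 ± 19.1 and 71.6 ± 45.5 CPM and was not called (adjusted p = 0.143), and the orphan receptor Nr4a1 averaged 533 ± 112 and 462 ± 68.3 CPM. The Myc call was lost without knockout RNA_11722, and the Dusp1 call without control RNA_11734, control RNA_11735 or knockout RNA_11688.

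Among metabolic genes, Phka1 and Phkb, subunits of the phosphorylase kinase that starts glycogen breakdown, fell from 1122 ± 180.5 to 605.7 ± 53.7 CPM and from 622 ± 67.8 to 420.1 ± 56.3 CPM. The Phkb call was lost without knockout RNA_11722 (adjusted p = 0.0526). Glycogen phosphorylase itself (Pygm) averaged 2559 ± 476 and 2018 ± 252 CPM (adjusted p = 0.251). Over the glycolysis and glycogen list, 4 genes were lowered and 1 was raised of 32 tested (median -0.29). Gapdh, also lowered, has near-identical copies elsewhere in the genome, and its low count of 43.9 ± 12.2 and 21.1 ± 4.26 CPM is uncertain. The raised gene was Fbp2, the muscle form of the gluconeogenic enzyme fructose bisphosphatase (99.4, 68.9, 73.4 and 81.9 CPM, then 122, 234, 237 and 196 CPM). In lipid metabolism, 2 of 38 uptake and oxidation genes were raised, the oxidase-like gene Acoxl (0.497 ± 0.31 to 10.9 ± 4.56 CPM) and Acot1, which stayed at or below 2.03 CPM in each library. Lpin1, a phosphatidate phosphatase, fell from 402, 761, 469.5 and 642 CPM to 269, 359, 277 and 283 CPM. In its list of 26 lipid synthesis genes Fdft1, a sterol synthesis enzyme, was the other one called (raised by 0.39), a call lost without any of 7 single libraries (highest adjusted p 0.116). The PPAR, ERR and PGC-1 list (22 tested) also holds other nuclear receptors. In it Vdr and Esrrb, an estrogen-related receptor, rose and Rxrg, a retinoid X receptor, fell. The glucocorticoid target Fkbp5, a chaperone of steroid receptors, fell from 63.6, 206.4, 130.6 and 149.7 CPM to 34.2, 55.3, 29.6 and 44.0 CPM, and of 18 such targets Dusp1 was the other one called, raised. None of 77 nuclear-encoded oxidative phosphorylation genes was called (median -0.18, 0 raised and 0 lowered with edgeR).

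Transport genes gave scattered calls. In the amino acid transport list 2 of 25 were raised. These were Spns3, which is not an established amino acid carrier, and Slc43a2, a carrier of large neutral amino acids (54.1 ± 5.04 to 97.4 ± 15.5 CPM). Slc7a8, another carrier of such amino acids, was lowered. The sodium-potassium pump list held a pair of opposite calls, Atp1b4, a muscle protein of the beta subunit family (16.6, 14.1, 14.1 and 14.5 CPM, then 43.1, 62.7, 48.4 and 67.4 CPM), and Atp1b1, the main beta subunit, which fell by 0.51. The Atp1b1 call was lost without any of 6 single libraries (highest adjusted p 0.119), whereas the Atp1b4 call was kept in every alternative run for it. Among 20 potassium and sodium channels, Kcng4 and Kcnj12 fell and Kcnc4 rose. Of 22 genes of the integrated stress response, Stc2 and Chac1 rose and Vldlr fell. Bcl2l11, which promotes cell death, rose from 16.5 ± 3.29 to 27.8 ± 2.74 CPM and was the 1 called of 16 survival genes. Single libraries ended the calls of Slc7a8, Kcnj12, Kcnc4, Chac1, Vldlr, Bcl2l11 and Acot1, with highest adjusted p-values of 0.0585 to 0.125. The Acot1 call was also lost with no filter on low counts and with DESeq2. Tnc, the matrix protein tenascin C, was the 1 called of 27 collagen and matrix genes and rose from 77.8 ± 6.28 to 127.5 ± 18.1 CPM.

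No member was called in the lists for calcium release (19 tested), the circadian clock (19), cell cycle inhibitors (20), myogenic factors (25), heat shock and chaperones (27), autophagy (22), interferon and MHC class I (26) or cytosolic ribosomal proteins (75). Their medians lay between -0.17 for calcium release and 0.115 for ribosomal proteins on the log2 scale. Hdac5, a histone deacetylase, was the 1 called of 18 genes in the list of BCL6 and its corepressors and rose by 0.35, a call lost without any of 3 single libraries.

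**Figure D4:**
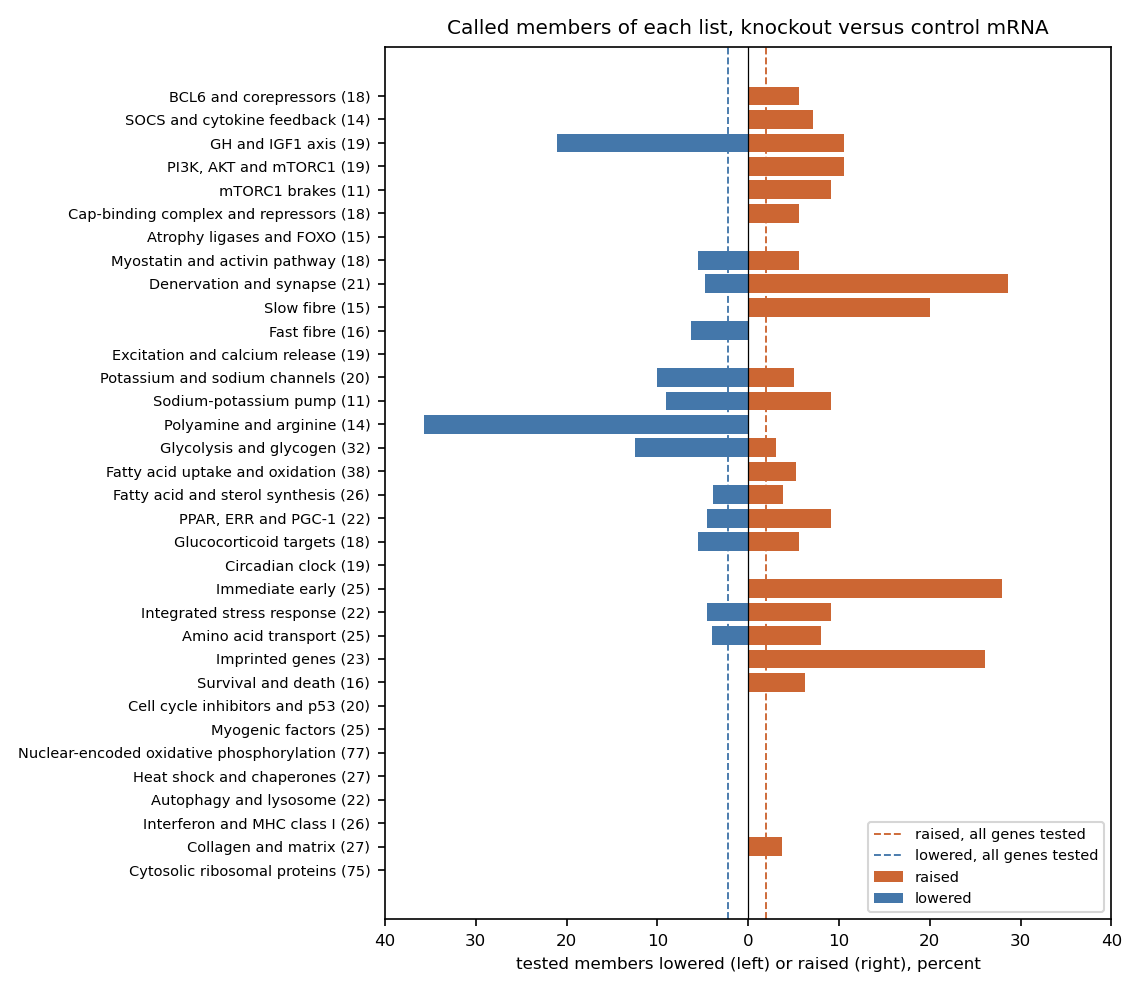
Percent of the tested members of each of 34 gene lists that were lowered (bars to the left) or raised (bars to the right) in knockout mRNA, with the number tested in parentheses. Dashed lines mark the 1.95% raised and 2.25% lowered among all genes tested. The lists were chosen with earlier results of these data known, so shares beyond these lines may partly reflect that choice. The polyamine list reaches farthest to the left with 5 of 14 lowered, and the denervation, immediate early and imprinted lists reach farthest to the right.

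Among the 10 raised and 10 lowered genes with the highest counts, changes varied in size. Rian, Meg3 and Akt1, described above, had log2 changes of 3.23, 2.14 and 1.49. The largest fall was that of Phka1 (log2 change -0.89). The raised ones included Aebp1, a matrix-associated carboxypeptidase-like protein (402 ± 68.4 to 833 ± 113 CPM), Idh2, the mitochondrial isocitrate dehydrogenase (300.5 ± 34.2 to 548 ± 41.6 CPM), and Lamb2, the laminin chain of the synaptic basement membrane (430.0 ± 23.7 to 602 ± 40.6 CPM). Their groups did not overlap. Lowered ones included Ky, which is needed for muscle maintenance (794 ± 54.8 to 574 ± 56.2 CPM), Fbxo40, a muscle ubiquitin ligase subunit (629 ± 76.7 to 449.7 ± 53.2 CPM), and Oxct1, which uses ketone bodies (649 ± 129.7 to 441 ± 29.4 CPM). The call of each of these 3 lowered genes was lost when at least 1 library was left out.

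The same genes were then read in muscle RNA of separate animals without RiboTag. There, 5 tamoxifen-treated knockouts (AEC-Esr Cre and Bcl6 fl/fl) were set against 4 tamoxifen-treated Bcl6 fl/fl mice without Cre, so that Cre differed between those groups and the floxed allele did not. The authors deposited these as log2 values after a transform they do not name, so sizes are not comparable with those above. In that comparison 6.58% of 12130 genes tested were raised and 10.3% were lowered. Of 242 raised RiboTag genes tested there, 161 were raised (66.5%) and 4 were lowered. A positive change was seen for 92.1% of them, against 51.4% of all genes tested in both experiments. Of 299 lowered genes, 215 were lowered (71.9%) and 2 were raised, and 3.34% had a positive change. Smox fell from 9.87 ± 0.12 to 9.10 ± 0.09 on the deposited log2 scale (SD, n = 4 and 5), and Rian rose from 9.08 ± 0.12 to 10.2 ± 0.07. Akt1 rose from 9.87 ± 0.06 to 10.5 ± 0.03 and Igf1 fell from 9.94 ± 0.18 to 8.96 ± 0.09.

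The 6 genes called in opposite directions are named here after their values were seen. Fos was raised in RiboTag mRNA but fell from 7.92 ± 0.13 to 7.56 ± 0.13 in the separate animals (adjusted p = 0.00275), and Dusp1 from 9.37 ± 0.07 to 9.09 ± 0.07 (adjusted p = 0.000242). Tnc and the potassium channel gene Kcnc4 were also raised in the first and lowered in the second. Neto2 and Xrcc5 were lowered in RiboTag mRNA (log2 changes -1.17 and -0.42) and raised in the separate animals by 0.07 and 0.11. Of the immediate early genes, 1 was raised (Myc) and 4 were lowered in the separate animals. Control groups, transgenes and the deposited scale all differed between the experiments, and their part in these differences was not tested.

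**Figure D5:**
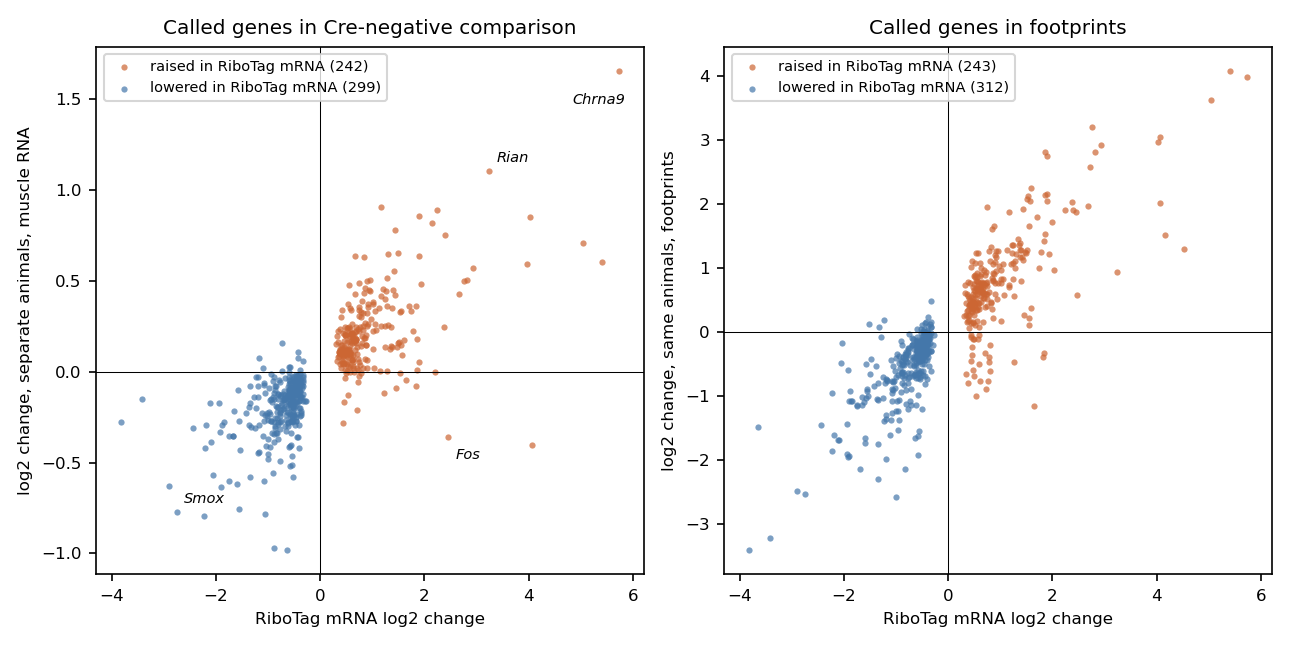
log2 change in RiboTag mRNA (horizontal) of the genes called there, against their log2 change in muscle RNA of separate animals (left) or in ribosome footprints of the same animals (right). Each point is a gene, and raised and lowered genes are coloured separately. Most points lie in the lower left and upper right, and Fos lies below 0 on the left panel.

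Ribosome footprints came from the same 8 animal numbers. In footprints 10.9% of 12979 genes tested were raised and 15.7% were lowered, so calls were more frequent there than in mRNA. Of 243 raised mRNA genes tested in footprints, 170 were raised (70.0%) and 6 were lowered, and of 312 lowered genes 179 were lowered (57.4%) and 1 was raised. The difference between the footprint and the mRNA change was tested as an interaction over the 16 libraries, which placed 2.93% of 14935 genes above and 6.98% below, or 437 and 1043 genes. With upper-quartile scaling these became 184 and 1219 genes. Leaving out single animals moved them further, to 53 above and 257 below without RNA_11734, 70 and 338 without RNA_11721, 75 and 298 without RNA_11722, 75 and 496 without RNA_11688, 105 and 446 without RNA_11735 and 287 and 695 without RNA_11673. Without RNA_11745 there were 672 above. Of 278 raised mRNA genes, 8 were above and 36 were below, and of 326 lowered genes, 39 were above and 6 were below. The mRNA change that selected these genes is also subtracted in the difference. Selection alone therefore leans raised genes below and lowered genes above, and no conclusion is drawn from these counts. For Stc2 the footprint change of 2.81 matched the mRNA change of 2.81 (difference 0.05, adjusted p = 0.938), and for Peg10 2.92 stood beside 2.93. For Polk, mRNA fell by 2.05 but footprints by 0.48, from 60.2 ± 5.82 to 43.2 ± 3.80 CPM (difference 1.62, adjusted p = 0.00746). Dpp6, a potassium channel auxiliary protein, fell from 4.56 ± 0.62 CPM in control mRNA to 1.56 ± 0.51 CPM, while its footprints averaged 13.95 ± 1.49 and 15.3 ± 2.88 CPM (difference 1.69, adjusted p = 0.00725). Igf1 footprints fell further than its mRNA, from 88.4 ± 12.97 to 28.0 ± 5.11 CPM (difference -0.97, adjusted p = 0.00936). Irs1 footprints averaged 223 ± 21.3 and 231 ± 19.1 CPM although its mRNA fell (difference 0.61, adjusted p = 0.0134). The noncoding Mirg had 2.56 ± 1.07 and 2.44 ± 0.84 CPM of footprints in the groups, and Rian 3.002 ± 1.44 and 5.66 ± 2.90 CPM.

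Most endothelial, macrophage, fibroblast and matrix genes were lowered in footprints. There 11 of 12 endothelial markers, 12 of 12 macrophage markers, 9 of 9 fibroblast markers and 25 of 27 collagen and matrix genes were lowered, against 0 lowered in mRNA for each of these lists. Among all genes tested in footprints 15.7% were lowered. The fall was not confined to these lists. Lowered too were 6 of 7 smooth muscle and pericyte, 7 of 9 tendon, 4 of 6 Schwann and 4 of 8 satellite cell markers. So were 18 of 23 interferon and MHC class I genes and 5 of 7 adipocyte markers (1 raised). The footprint change was called below the mRNA change for 11 of the 12 endothelial markers and 22 of the 27 collagen and matrix genes. It was called below for 3 of the 12 macrophage and 4 of the 9 fibroblast markers. The median differences of these 4 lists were -1.48, -0.997, -1.04 and -0.93 in the same order. With footprint and mRNA paired by animal, 11, 25, 3 and 7 members were below. Summed endothelial markers in footprints were 587 to 1066 CPM in the controls and 207 to 525 CPM in the knockouts, and fibroblast markers 3562 to 5342 and 1877 to 3364 CPM. Muscle fibre markers in footprints were 45810 to 56290 and 41250 to 63150 CPM. Of these 13 markers, 5 were called lowered and 0 raised in footprints (median log2 change -0.136). In the separate muscle RNA 7 of the 13 were lowered and 0 raised. The part of these markers in the differences between footprints and mRNA was not tested. Kera, a cornea and tendon keratan sulfate proteoglycan, rose in mRNA from 96.8 ± 6.12 to 139.8 ± 15.2 CPM and fell in footprints from 58.1 ± 15.99 to 29.1 ± 7.95 CPM (difference -1.48, adjusted p = 0.00448). Tendon markers summed to 1773 to 2138 CPM in control mRNA and 1972 to 2530 CPM in knockout mRNA. Gimap6, a GTPase of immune and endothelial cells, rose in mRNA from 47.2 ± 1.15 to 59.7 ± 2.91 CPM and fell in footprints from 33.2 ± 5.18 to 21.0 ± 3.49 CPM (difference -0.95, adjusted p = 0.00595), and its mRNA call was lost in 9 of 13 alternatives.

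BCL6 peaks in wild-type quadriceps, from 1 library without a replicate, were set beside the calls. A peak centre lay within 1000 bp of the start of 67 of 283 raised genes (23.7%, 95% Wilson interval 19.1 to 29.0%), of 37 of 326 lowered genes (11.3%, 8.35 to 15.3%) and of 1523 of 14476 genes tested (10.5%). Intervals cover counting error only. Restricting peaks to those at or above the median score of 23.3 gave 15.9%, 5.52% and 6.17%. Within 10000 bp the shares were 47.3% of raised genes (41.6 to 53.2%), 31.6% of lowered genes (26.8 to 36.8%) and 20.6% of all genes, so that the lowered genes were above all genes at this distance. Peak scores are the authors' own, on a scale they do not name. Among called genes, Socs2 had the peak with the highest score, 1204.2 at -49 bp from its start (negative is upstream), followed by Tnc with 606.4 at -415 bp. Casq2 (score 121.3, at -445 bp), Igfals (154.4, at -62 bp), Fbp2 (84.5, at -126 bp) and Stc2 (22.1, at -32 bp) were raised with a peak close by. Igf1 was lowered with a peak of score 35.5 at -65 bp. Chrna9, Smox and Akt1 had their nearest listed peaks at -1074, 1244 and 3140 bp from their starts.

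Promoter sequence from RefSeq (GRCm38.p6, the assembly of mm10) was at hand for 11186 of the 14476 genes, 215 of them raised and 237 lowered. The 250 bases before each start were searched on both strands for TTCCNNGAA, a short form of the motif known for BCL6. The wider STAT-type TTCNNNGAA includes every such match. TTCCNNGAA was found for 4.6% of all these genes, 6.51% of raised genes (14) and 6.75% of lowered genes (16), and for 14.8% of the 479 genes with a BCL6 peak centre in the same 250 bases. TTCNNNGAA was found for 7.21% of all, 10.7% of raised and 9.7% of lowered genes. Of 24 raised and 11 lowered genes with a peak centre in the window, 3 and 2 held TTCCNNGAA. Those 5 promoters are shown, 5′ to 3′ on the gene's strand and ending at the base before the start, because they hold both the peak and the motif letters, in capitals. They lie at chr17:24877981-24878230 (plus strand) for Igfals, chr4:96348681-96348930 (minus) for Cyp2j11, a cytochrome P450, chr12:86360867-86361116 (plus) for Esrrb, chr3:142530086-142530335 (plus) for Gbp7, an interferon-inducible GTPase, and chr12:91786437-91786686 (minus) for Ston2, an endocytic adaptor.
Igfals: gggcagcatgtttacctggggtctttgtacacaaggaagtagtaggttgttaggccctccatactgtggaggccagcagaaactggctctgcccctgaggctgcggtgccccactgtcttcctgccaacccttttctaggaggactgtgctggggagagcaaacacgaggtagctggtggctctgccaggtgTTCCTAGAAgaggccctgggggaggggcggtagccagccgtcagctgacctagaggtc
Cyp2j11: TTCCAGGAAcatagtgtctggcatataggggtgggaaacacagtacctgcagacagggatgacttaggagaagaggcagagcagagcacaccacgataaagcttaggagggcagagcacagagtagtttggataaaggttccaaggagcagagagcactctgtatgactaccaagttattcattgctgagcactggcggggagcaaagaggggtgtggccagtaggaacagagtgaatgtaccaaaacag
Esrrb: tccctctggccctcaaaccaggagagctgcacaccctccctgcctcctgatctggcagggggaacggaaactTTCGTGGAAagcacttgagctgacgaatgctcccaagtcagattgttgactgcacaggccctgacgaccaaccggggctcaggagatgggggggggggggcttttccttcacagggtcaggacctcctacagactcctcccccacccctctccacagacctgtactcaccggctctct
Gbp7: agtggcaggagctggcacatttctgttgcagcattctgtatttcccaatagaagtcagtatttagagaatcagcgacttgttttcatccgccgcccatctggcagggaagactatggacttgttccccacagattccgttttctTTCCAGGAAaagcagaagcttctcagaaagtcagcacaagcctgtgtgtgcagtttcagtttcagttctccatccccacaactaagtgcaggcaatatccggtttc
Ston2: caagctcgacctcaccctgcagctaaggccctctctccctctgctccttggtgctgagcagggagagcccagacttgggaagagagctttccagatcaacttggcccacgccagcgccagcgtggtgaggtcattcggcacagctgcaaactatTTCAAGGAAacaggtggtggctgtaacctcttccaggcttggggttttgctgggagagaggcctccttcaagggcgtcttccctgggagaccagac
The motif began at -58 bp in Igfals, where the peak centre lay at -62 bp, and at -178 bp in Esrrb, with the peak centre at -185 bp. In Gbp7 it began at -106 bp and the peak centre lay at -122 bp. In Ston2 and Cyp2j11 the letters began at -96 and -250 bp and the peak centres lay at -41 and -200 bp. Igfals, Cyp2j11 and Esrrb rose, Cyp2j11 from 0.653 to 1.40 CPM in the controls to 3.69 to 4.32 CPM in the knockouts, and Esrrb lost its call without any of 6 single libraries (highest adjusted p 0.125). Gbp7 fell from 31.3, 29.9, 27.6 and 23.4 CPM to 10.1, 14.8, 6.35 and 12.6 CPM, and Ston2 from 139, 177, 146 and 145 CPM to 95.4, 115, 94.3 and 108 CPM. A match of letters is a description and does not show binding at that place.

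Nascent RNA of wild-type quadriceps after FX1, an inhibitor of BCL6, or DMSO (5 libraries each) gave another reading of the called genes. There 12.4% of 13282 genes tested were raised by FX1 and 11.4% were lowered. Of 225 genes raised in knockout mRNA, 34 were raised (15.1%) and 41 were lowered (18.2%), and of 310 lowered genes, 44 were raised and 64 were lowered (20.6%). In both sets the lowered share was above the 11.4% of all genes, and 34 of 225 and 44 of 310 were raised against 12.4%. Genes raised in knockout mRNA, footprints and separate muscle RNA numbered 121, of which 101 were tested in nascent RNA, where 18 were raised and 20 were lowered. Eif4ebp1, Sesn1 and Stc2 were among the 18, and Idh2 (log2 change -1.69), Atp1b4 (-1.51) and Casq2 (-1.36) among the 20. Chrna9, Spns3, Cited1 and Sln were not tested there. Genes lowered in the same 3 readouts numbered 138, of which 135 were tested, with 33 lowered by FX1, Igf1, Oxct1 and Cd28 among them, and 16 raised. Smox had a log2 change of -0.22 with FX1 (adjusted p = 0.654) and Rian of 0.15 (adjusted p = 0.608).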

How the data were processed

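Members, gene lists and tests were chosen with earlier results of these data known. Poly(A) RNA and footprint counts per gene were deposited by the authors as whole numbers on mm10, counted over whole gene bodies with HOMER and at most 5 tags per position, per the file headers. The strand setting is not given in the sources used here, and the labels' protocol names a stranded kit. Muscle and nascent RNA values were deposited by the authors on a log2 scale whose transform is not given. BCL6 peak score values were deposited by the authors for 1 wild-type library. The submitters' processing notes name Bowtie 1.2, STAR 2.4.0, HOMER and DESeq2 1.14.1.

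Counts were tested in edgeR 4.0.16 (R 4.3.3) with TMM scaling, the quasi-likelihood test, a minimum count of 10 and Benjamini-Hochberg adjusted p below 0.05 over all genes tested, with 4 libraries a group. Scripts were tested on simulated data. Depth was 6499561 to 13045854 counts for mRNA and 3248807 to 4370468 for footprints. Deposited log2 values were tested with limma 3.58.1 after dropping genes below 5 in each group mean. Footprints and mRNA share animal numbers in the titles. Deviations of paired libraries correlated between -0.027 and 0.349. The named genes were the 12 raised and 12 lowered with the largest fold at a mean of at least 5 CPM, the 10 each way with the highest counts, up to 4 per list, 3 each way for the interaction and a fixed set of 10. Alternatives changed scaling, filter, tool (DESeq2 1.42.0), genes near the position limit, the replicate block and single libraries.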

Additional observations from a re-analysis of the deposited data

Results flagged for a closer look

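In 14 of 186 groups of 4 libraries, the highest or lowest library was separated from its nearest neighbour by more of the group's range than Dixon's 95% critical value. Chance flags about 5% of such groups. RNA_11688 stood high among knockouts for Igf1 at 49.65 CPM (the others 35.88 to 37.86) and for Chrna9 at 54.46 CPM (23.53 to 26.15). RNA_11718 stood low for Sln at 55.96 CPM (92.23 to 97.04) and Gimap6 at 55.35 CPM (60.44 to 61.46), and high for Wnk2, a kinase gene, at 531.4 CPM and Lpin1 at 358.9 CPM (268.6 to 283.1). RNA_11721 stood low for Azin1 at 54.49 CPM (76.66 to 80.65) and high for Fdft1 at 139.0 CPM. RNA_11722 stood high for Dpp6 at 2.317 CPM (1.223 to 1.374) and low for Kera at 117.1 CPM (145.4 to 148.9). Among the controls, RNA_11673 stood low for Lrtm2 at 5.692 CPM (27.58 to 31.9) and high for Myh3 at 8.864 CPM (5.918 to 6.055) and Atp1b4 at 16.61 CPM (14.07 to 14.46). Fos was low in control RNA_11745 at 8.746 CPM (16.42 to 16.65).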

How the results depend on the processing

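DESeq2 called 565 genes lowered in mRNA. Without single libraries, mRNA counts ranged from 176 to 343 raised and from 209 to 483 lowered genes. Raised footprint genes ranged from 812 (without animal RPF_11735) to 1514, with 814 without RPF_11721. Genes with the footprint change above the mRNA change numbered 184 with upper-quartile scaling, 246 with no filter and 934 with DESeq2, and 53 to 672 without single animals. Those below ranged from 257 to 1455 without single animals. With the replicate block, which pairs footprint and mRNA of an animal, 526 genes were above and 1191 below. The block moved the interaction past the threshold for 9 named genes, Chrna9 (0.0317) and Sln (0.00567) among them, by adjusted p. No paired analysis was possible for mRNA alone, since the groups share no animal number. Peak shares of raised, lowered and all genes were 12.7, 6.44 and 5.31% within 250 bp, 47.3, 31.6 and 20.6% within 10000 bp, and 15.9, 5.52 and 6.17% for peaks at or above the median score. The cause of these differences was not tested. Of 88 called named genes, 59 kept their call in every alternative run for them, 29 lost it in at least 1 and 0 reversed. All 13 alternatives were run for 56 of them, and 12 for the other 32, which lie near the position limit and drop out where such genes are removed. Few reads limit the precision of the lowest values, such as Chrna9 in the controls.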

Other observations

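Genes close to Bcl6 on chromosome 16 were called in RiboTag mRNA more often than all genes, in a window chosen after values were seen. Within 5000000 bp of Bcl6, 58 genes were tested, and 6 were raised and 5 lowered, against 4.21% called of all genes. In the separate muscle RNA, where both groups carry Bcl6 fl/fl, 51 genes of the window were tested, and 5 were raised and 5 lowered, against 6.58% raised and 10.3% lowered of all genes there. Masp1, a complement-activating protease, rose from 11.04 ± 0.65 to 20.3 ± 2.82 CPM in RiboTag mRNA and also rose in the separate animals (log2 change 0.20). Ostn, which encodes the muscle-derived peptide osteocrin, fell from 13.1 ± 7.24 to 4.42 ± 0.33 CPM, and fell there too (-0.10). Lpp, a focal adhesion protein, rose from 70.7 ± 11.2 to 101.8 ± 9.53 CPM, and its change of 0.08 there was not called (adjusted p = 0.106 by limma). Its reads overlap those of Lppos. What the floxed allele and the DNA around it contribute to these values was not tested.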
